A study of Angelica pubescens with 12 samples.

Results

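Roots of Angelica pubescens from the southern producing areas, Chongqing and Hubei, were compared with roots from the northern areas, Gansu and Shanxi. All 12 libraries of the series took part, 3 from each of the 4 areas, so that each side held 6 libraries. Each area weighed the same, because the average of the Chongqing and Hubei levels was set against the average of the Gansu and Shanxi levels. A unigene was taken as a south-north unigene only where both southern areas differed in the same direction from both northern areas. This was the case for 3253 of the 35384 plant unigenes tested, 1748 of them higher and 1505 lower in the south.

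The series asked how gene expression in this root differs between producing areas with different environments. Every sample was root tissue aged 2 years, and the labels give no treatment, cultivar, field or date of harvest for any area. The labels name the producing areas alone, and the words south and north refer to where these areas lie. Transcripts were assembled de novo, and an assembled sequence, or unigene, is named here by its best protein match and, where needed, by the assembly cluster in its identifier (such as DN22860).

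Angelica pubescens belongs to the carrot family, and its dried root is used in Chinese medicine as Duhuo. The root accumulates coumarins, which are made from phenylpropanoid precursors, among them prenylated simple coumarins and furanocoumarins. Roots store sugars and starch received from the leaves, take up water and ions, and respond to soil organisms through hormones such as ethylene and through pathogenesis-related proteins.

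The libraries held 19920182 to 23319714 counts each. A chi-square test of 2 replicates of an area gave 4.47 to 8.85 per degree of freedom in the 12 such comparisons, above the 1 that counting alone would give. Whether replicates were separate plants is not stated, and the p-values then measure the spread of these samples only, which may be technical. In the Shanxi libraries 3.2% to 3.33% of the counts fell on 2 unigenes of a coat protein and a polyprotein whose best match is an artificial sequence, against at most 0.00623% elsewhere. Unigenes with a fungal, algal or other non-plant match took 0.173% to 0.247% of the counts in the south and 0.263% to 0.51% in the north. These shares run with the Shanxi area or with the side, and their part in the results was not tested. In whole roots, fewer cells of a type and less RNA per cell cannot be told apart.

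Differences that set both southern areas apart from both northern areas were a minority of all differences between areas. The 1748 higher unigenes were 4.94% of the plant unigenes tested and the 1505 lower ones were 4.25%, together 9.19%. Of the higher ones 1692, and of the lower ones 1448, had no overlap between the 6 southern and 6 northern libraries, beside 2181 (6.16%) and 1876 (5.3%) of all plant unigenes tested. The rule of all 4 pairs used the same 12 libraries, so this lack of overlap largely follows from it and is no separate result. The called shares of 4.94% and 4.25% are those against which the counts of every gene group are read below. In single pairs the shares called were several times larger, at 24.3% higher and 24% lower in Chongqing than in Gansu and 26.9% and 32.0% than in Shanxi. Hubei had 35% higher and 26.3% lower than Gansu and 30% and 24.1% than Shanxi. The areas within a side also differed, with 61.1% of the plant unigenes called between Chongqing and Hubei and 55.4% between Gansu and Shanxi. Chongqing and Gansu as a pair differed in the same strict sense from Hubei and Shanxi in 6671 unigenes (18.9%), with 7.85% higher and 11% lower in Chongqing and Gansu. The mean Spearman correlation of log2 levels was 0.767 between Chongqing and Gansu and 0.757 between Hubei and Shanxi, but 0.729 between the southern and 0.753 between the northern areas. These correlations are over unigenes of the same 12 libraries and are descriptions.

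The contrast of the averages called many more unigenes, 9869 higher (27.9%) and 8667 lower (24.5%) in the south, together 52.4%, at an adjusted p under 0.05 in the quasi-likelihood test of edgeR. Of these, 17.5% met the stricter rule in all 4 cross pairs. The test takes its error from the libraries within areas. With the counts of each area summed, so that 2 areas stood against 2, edgeR called 0 unigenes at an adjusted p under 0.05, while 1536 (4.34%) had an unadjusted p under 0.05. DESeq2 on the same area sums called 552 higher and 552 lower. With 2 areas on a side an exact two-sided test of 1 value cannot go below 0.333, so the values below describe these 4 areas and not southern and northern areas at large.

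The south-north differences ranged from slight to nearly on or off. Among the 3253 unigenes the median of the smallest of the 4 cross-pair log2 fold changes was 1.01 in size, and the median of the largest was 2.69. In each of the 4 pairs, 796 higher and 836 lower unigenes differed by 2-fold or more, and 332 and 314 by 8-fold or more. All 6 northern libraries had 0 counts for 85 of the higher unigenes, and all 6 southern libraries had 0 counts for 96 of the lower ones. The southern areas also differed from each other in 50.3% of the unigenes and the northern areas in 45.7%. At the threshold, the largest adjusted p over the 4 pairs was 0.04998 just inside and 0.05002 just outside, and 580 further unigenes with 1 direction in all pairs lay between 0.05 and 0.1. Among 24576 tested unigenes without a protein match, 641 were higher and 581 lower in all 4 pairs. Of 419 tested fungal unigenes, 2 were higher and 19 lower in the south.

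Unigenes of alleles, splice forms or close paralogs can divide the reads of 1 gene. Of the 2581 best-match proteins behind the 3253 unigenes, 168 had unigenes in both directions. When counts were summed over all unigenes with the same best match, 878 of 17958 plant proteins were higher (4.89%) and 717 lower (3.99%) in all 4 pairs. The value of the summed counts is given below as the protein sum, on the log2 scale as south minus north.

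**Figure D1:**
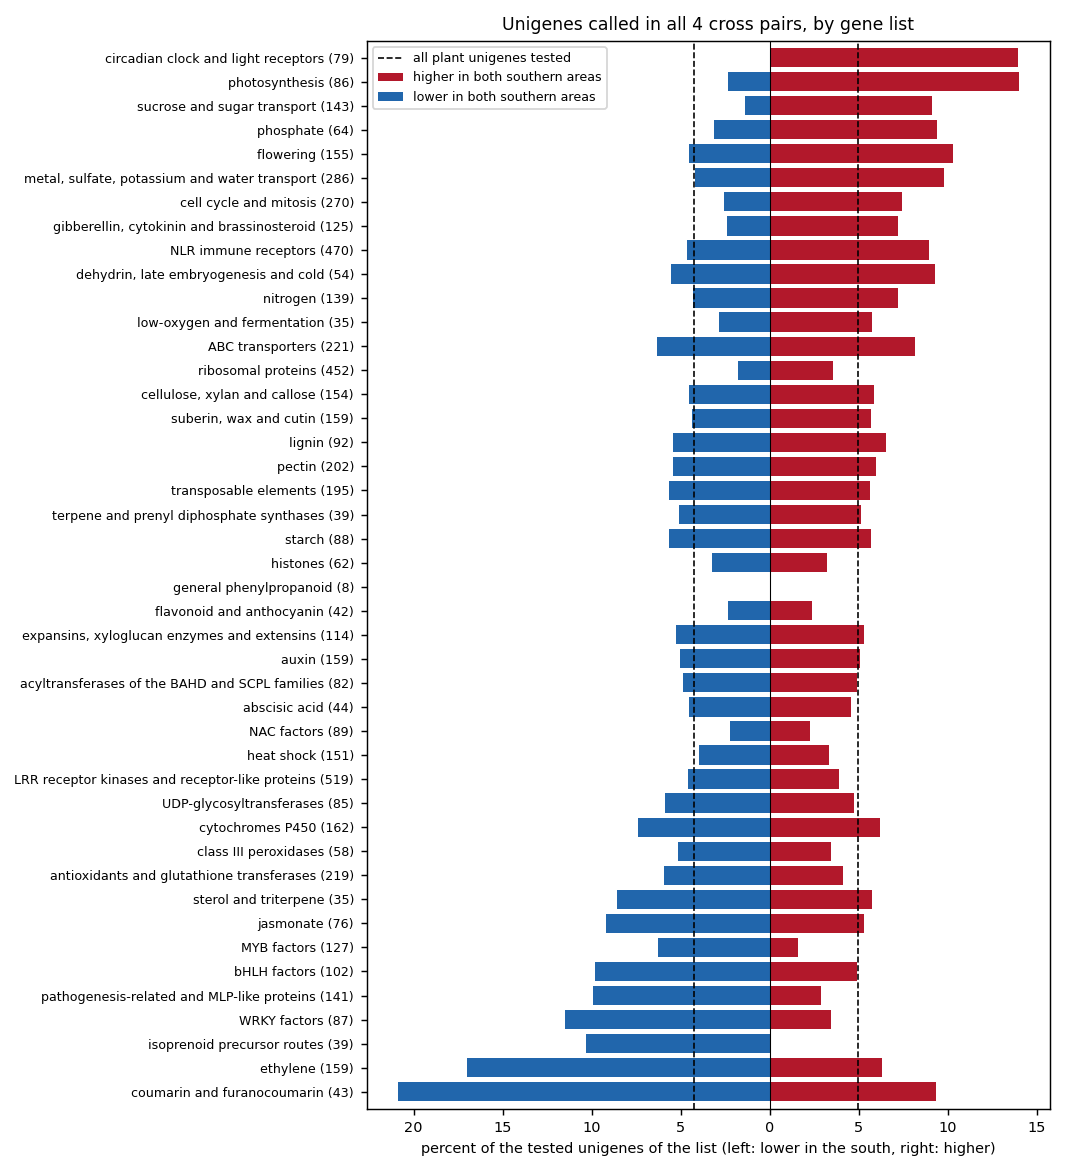
Share of the tested plant unigenes of each of 44 gene lists that were higher (right, red) or lower (left, blue) in both southern areas than in both northern areas, in percent, with the number tested in parentheses and the shares over all plant unigenes as dashed lines. The clock and photosynthesis lists have the largest shares higher, 13.9% and 14.0%, and the coumarin and ethylene lists the largest shares lower, 20.9% and 17.0%.

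The gene lists sorted by direction as follows. Of 44 lists, 18 held more higher than lower unigenes, 15 more lower than higher, and 11 as many of each. Lists leaning higher in the south included the circadian clock and light receptors, photosynthesis, sugar transport, flowering, metal and water transport, and the cell cycle. Lists leaning lower included coumarin and furanocoumarin synthesis, ethylene, isoprenoid precursors, WRKY factors and pathogenesis-related proteins. The plot of list shares shows each beside the background of 4.94% higher and 4.25% lower.

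The unigenes with the largest differences without overlap of the libraries had varied annotations. The 12 higher and 12 lower unigenes with the largest smallest-pair fold change, at a mean of at least 3 log2 CPM (counts scaled to a common library size) and without overlap of the libraries, are plotted by area. Lack of overlap was a condition for choosing these, and also for the leading unigene of each list and direction named below, so it is no separate result. Several of the plotted unigenes were 1 of a set of similar unigenes, and the difference then shrank or vanished in the protein sum.

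A polygalacturonase, an enzyme that cuts the pectin backbone, illustrates this. Unigene DN20976 had 188, 203 and 233 CPM (lowest, median and highest) in the 6 southern libraries and 0.22, 0.992 and 1.88 CPM in the 6 northern ones. Another polygalacturonase unigene, DN21976, had 0.805, 1.24 and 1.8 CPM in the south and 123, 133 and 136 CPM in the north. The groups did not overlap in either, in opposite directions, with log2 fold changes of 7.77 ± 0.22 (SE, n = 6 libraries a side, adjusted p = 2.3e-11) and -6.64 ± 0.111 (adjusted p = 3e-13). Both have the same best-match protein, and the sum over its 7 unigenes differed by 0.38 and was not called in all 4 pairs. Auxin response factor 6, which switches on auxin-responsive genes, had the same pattern: DN20491 was higher by 3.31 and DN24628 lower by 3.82 on the log2 scale, with a protein sum of 0.26.

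A unigene of metallothionein type 2, a small cysteine-rich protein that binds metal ions, was abundant in the south. This unigene, DN15530, had 1521, 1858 and 2085 CPM in the southern libraries and 0.969, 3.48 and 13.8 CPM in the northern ones. No libraries overlapped, and the log2 fold change was 8.53 ± 0.333 (adjusted p = 3.3e-10). The protein sum over 3 unigenes was also called higher in all 4 pairs, at 0.94. Another unigene of the same annotation, DN21621, was abundant on both sides. It had 4008 to 6031 CPM in the south and 2236 to 3597 CPM in the north, higher by 0.77.

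A plasma membrane calcium-transporting ATPase, which pumps calcium out of the cytosol, had 78, 164 and 225 CPM in the south and 0, 6.35 and 13.6 CPM in the north (DN23383). Its log2 fold change of 6.27 ± 0.174 became 6.89 without the first Gansu library, and Gansu averaged 0.28 CPM. The protein sum over 3 unigenes was 3.67 and was not called in all 4 pairs. Centromere protein C, part of the platform on which chromosomes attach to the spindle, was higher by 4.15 (DN22607), with a protein sum of 1.86. Cyclin-B3-1, a regulator of entry into mitosis, had 82.1, 98 and 108 CPM in the south and 7.64, 10.7 and 12 CPM in the north. All 6 southern libraries lay above the northern ones, and as the single unigene of its protein it was higher by 3.21 ± 0.0722 (adjusted p = 3.3e-12). Of the other higher leaders, an armadillo repeat-containing protein 6 unigene (3.80) was also the single unigene of its protein. For the DEAD-box RNA helicase 20 unigene (2.81) the protein sum had the opposite sign, -0.33.

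Among the lower leaders, beta-amyrin 28-monooxygenase, a cytochrome P450 that oxidises the triterpene beta-amyrin on the way to oleanolic acid, had 0.436, 3.31 and 7.68 CPM in the south. The northern libraries had 39.6, 44.4 and 51.7 CPM. The groups did not overlap, the log2 fold change was -4.44 ± 0.119 (adjusted p = 1.5e-11), and this was the only tested unigene of its protein (DN17093). Geraniol 8-hydroxylase, the name of a P450 of monoterpenoid metabolism, had 5.42, 7.75 and 11.1 CPM in the south and 66, 84.8 and 109 CPM in the north (DN20079). It was lower by 3.44 ± 0.0867 on the log2 scale, with a protein sum of -2.53. A unigene matching the small GTPase Rab 15 had 3.97, 9.07 and 9.7 CPM in the south but 91.7 to 3732 CPM in the north, where Gansu held nearly all of it. The 40S ribosomal protein S23 unigene DN18343 (-6.20) and the SnRK1 kinase unigene DN24646 (-3.72) had protein sums near 0, at -0.27 and -0.06.

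**Figure D2:**
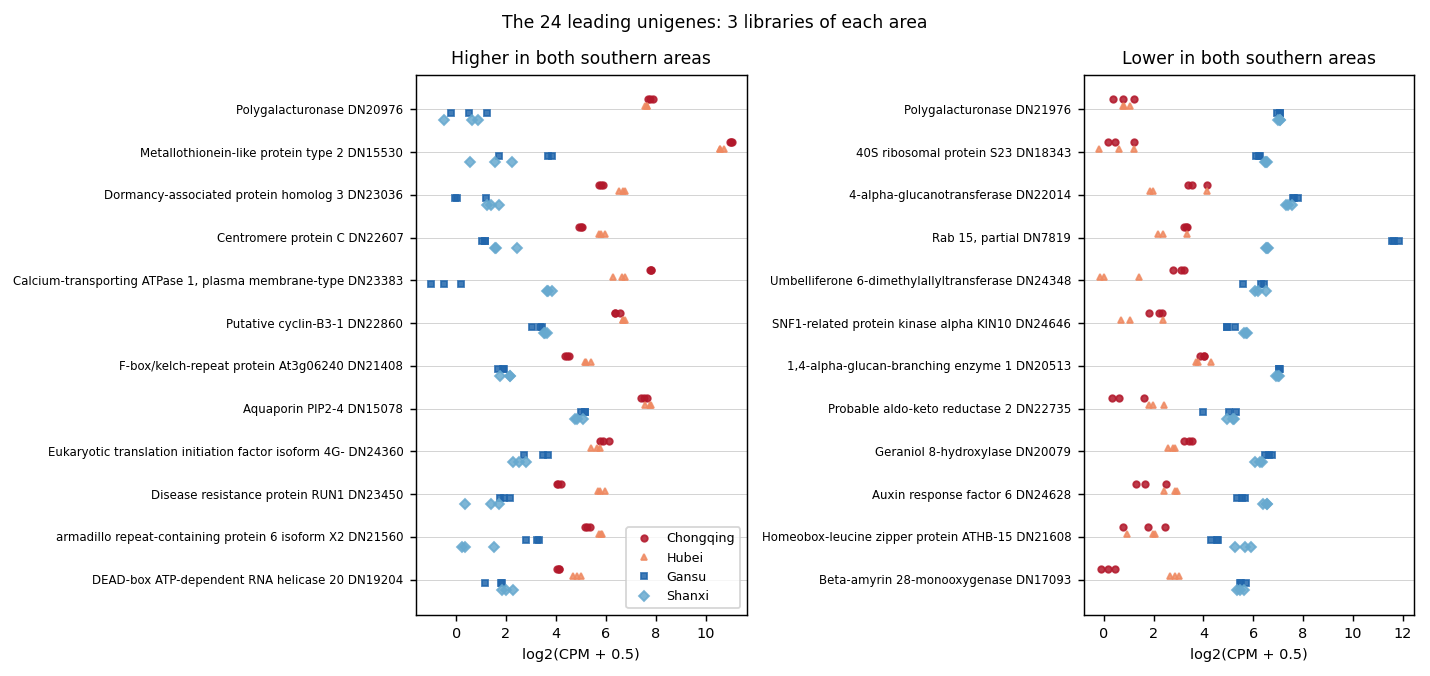
Levels of the 24 leading unigenes in the 3 libraries of each area, as log2(CPM + 0.5), with southern areas in red shades and northern areas in blue shades, 12 unigenes higher in the south on the left and 12 lower on the right. The unigenes were chosen for no overlap of the libraries, so in each the 6 southern points lie to one side of the 6 northern points. For the polygalacturonase DN20976 the southern libraries lie between 188 and 233 CPM and the northern ones at or below 1.88 CPM.

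**Figure D3:**
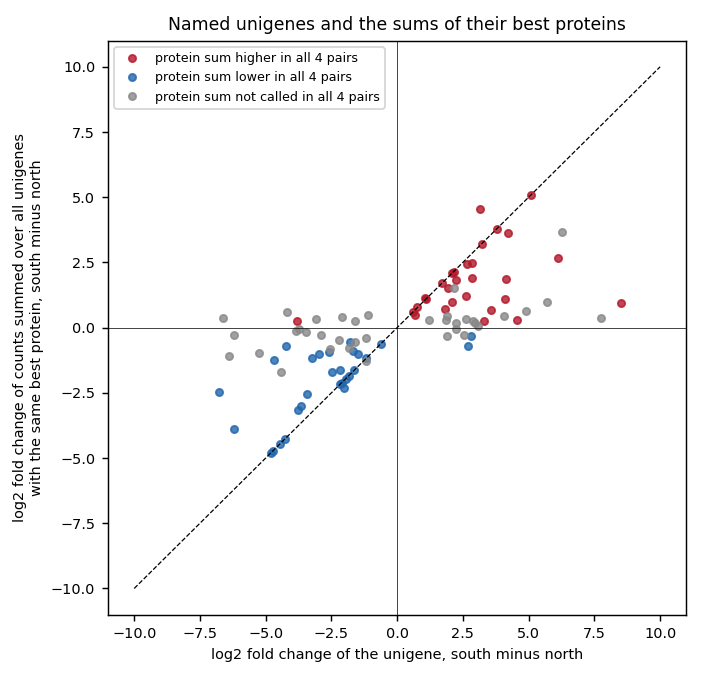
Log2 fold change of each named unigene, south minus north, against that of the counts summed over all unigenes with the same best-match protein, coloured by whether the sum was higher, lower or not called in all 4 pairs, with the line of equality dashed. Points on or near the line include single unigenes such as cyclin-B3-1 (3.21 and 3.20), and points near 0 on the vertical axis are unigenes such as the polygalacturonase DN20976 (7.77 and 0.38).

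Every clock and light-receptor unigene that passed the rule of all 4 pairs was higher in the south. Of 79 tested unigenes of the clock and light-receptor list, 11 (13.9%) were higher and 0 lower in all 4 pairs, whereas the contrast of the averages called 33 higher and 20 lower. The median log2 fold change of the list was 0.10 beside 0.03 over all plant unigenes. Summed per protein, 5 of 37 were higher and 0 lower. The pseudo-response regulators are clock repressors whose expression follows the time of day. Their 12 unigenes summed to 465 to 487 CPM in Chongqing and 479 to 510 CPM in Hubei, against 267 to 277 CPM in Gansu and 277 to 309 CPM in Shanxi. The sums of both southern areas thus lay above those of both northern areas.

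APRR5, a pseudo-response regulator that acts in the evening phase of the clock in Arabidopsis, had 22.4, 35.5 and 55 CPM in the south and 5.64, 7.77 and 12.1 CPM in the north (DN20053). The libraries did not overlap, and the log2 fold change was 2.16 ± 0.138 (adjusted p = 3.7e-08), with a protein sum of 1.52 that was not called in all 4 pairs. A further APRR5 unigene (2.03), APRR1 (2.07), a part of the core feedback loop, and GIGANTEA (1.26), which links the clock to flowering, were also higher. Chosen here after their values were seen, LNK2 (1.91 and 1.66), LNK1 (0.47), REVEILLE 1 (0.65) and REVEILLE 5 (4.84) were higher as well. Of 18 tested LNK and REVEILLE unigenes, 5 were called, and the summed level of the 18 did not separate the sides. The sums were 418 to 427 CPM in Chongqing and 233 to 241 CPM in Hubei, against 291 to 303 CPM in Gansu and 156 to 170 CPM in Shanxi. A phototropin-1 unigene, of the family of blue-light receptors, had 26.4 to 32.5 CPM in the south and 0 to 0.424 CPM in the north. All 25 tested unigenes of photoreceptors together summed to 515 to 592 CPM in the south and 387 to 747 CPM in the north, and these ranges overlap. The labels give no hour of harvest, so the time of day cannot be told apart from the area.

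Photosynthesis genes leaned the same way. Of 86 tested unigenes, 12 (14.0%) were higher and 2 (2.33%) lower in all 4 pairs, and the median of the list was 1.08. Summed per protein, 10 of 71 were higher and 3 lower. The 56 unigenes of photosystem and light-harvesting proteins summed to 538 to 565 CPM in Chongqing and 549 to 591 CPM in Hubei, against 266 to 297 CPM in Gansu and 389 to 419 CPM in Shanxi. Photosystem I subunit XI had 23.7, 35.4 and 49.9 CPM in the south and 3.12, 5.62 and 10.4 CPM in the north (DN5561). It did not overlap between the sides, at a log2 fold change of 2.66 ± 0.0899 (adjusted p = 9.2e-11) and a protein sum of 2.44. Protochlorophyllide reductase, the light-dependent enzyme of chlorophyll synthesis, was higher by 3.03 ± 0.146. The small chain of Rubisco, the carbon-fixing enzyme, went both ways: unigene P8 was higher by 2.99 (158 to 188 CPM in the south, 3.69 to 90.4 CPM in the north) and unigene 7 was lower by 4.81 (0.58 to 22 CPM against 88 to 265 CPM). Rubisco and Rubisco activase unigenes together summed to 280 to 315 CPM in the south, within the northern range of 212 to 363 CPM.

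These genes mark green tissue, and the sums of tissue markers are therefore given beside them. Rubisco small chain and chlorophyll a-b binding unigenes summed to 376 to 420 CPM in the southern areas, 265 to 308 CPM in Gansu and 414 to 446 CPM in Shanxi. Photosystem subunits, also leaf markers, summed to 197 to 217 CPM in Chongqing and 159 to 174 CPM in Hubei. Gansu had 104 to 115 CPM of these and Shanxi 103 to 116 CPM, both below the southern areas. The 22 xylem markers were lowest in Chongqing (48.3 to 50.5 CPM) and highest in Gansu (312 to 339 CPM), with Hubei at 130 to 146 CPM and Shanxi at 96.9 to 101 CPM. The 19 phloem markers summed to 111 to 120 CPM in Chongqing and 241 to 258 CPM in Hubei, below Gansu at 301 to 319 CPM and Shanxi at 402 to 431 CPM. Meristem markers (cyclins and kinesins) summed to 1465 to 1470 CPM in Chongqing and 1416 to 1462.5 CPM in Hubei. Gansu had 1112 to 1132 CPM of these and Shanxi 1277 to 1297 CPM. Histones, a further meristem marker left out of these sums, did not separate the sides. The 62 histone unigenes summed to 1426 to 1558 CPM in Chongqing and 2390 to 2757 CPM in Hubei. Their sums were 1485 to 1686 CPM in Gansu and 1904 to 2226 CPM in Shanxi. Periderm and endodermis markers had 851 to 887 CPM in Chongqing, 594 to 668 in Hubei, 696 to 718 in Gansu and 749 to 769 in Shanxi. The part of tissue makeup in the results was not tested.

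**Figure D4:**
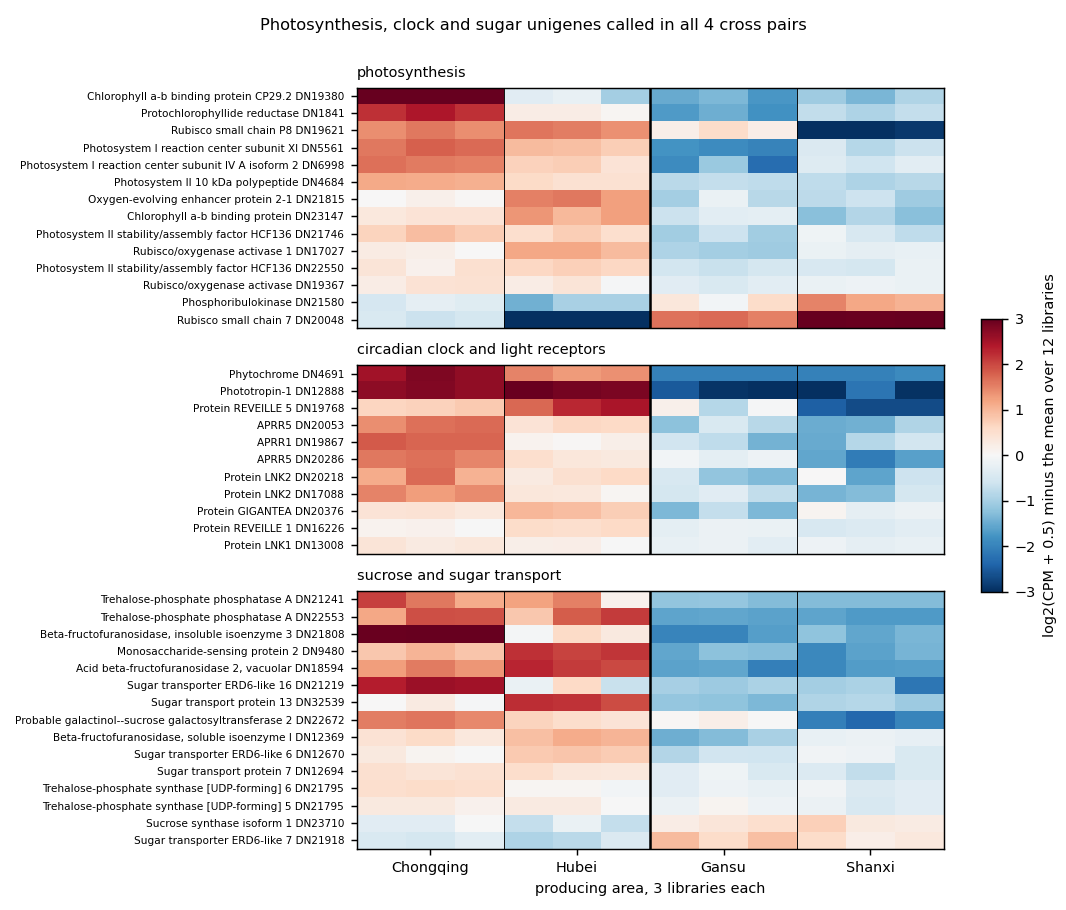
Heat map of the photosynthesis, clock and sugar unigenes called in all 4 cross pairs, with 3 libraries per area as columns, as log2(CPM + 0.5) minus the unigene's mean over the 12 libraries; the colour scale ends at 3 in either direction. Of these unigenes 36 are higher (red in the Chongqing and Hubei columns), among them APRR5 at 2.16, and 4 are lower, among them the Rubisco small chain 7 unigene at -4.81.

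Sugar genes leaned higher in the south. Of 143 tested unigenes for sucrose metabolism and sugar transport, 13 (9.09%) were higher and 2 (1.4%) lower, with a list median of 0.20, and per protein 6 of 76 were higher and 0 lower. Invertases split sucrose into glucose and fructose, and 3 of 21 were higher and 0 lower, with a median of 0.07. The 21 summed to 153 to 157 CPM in Chongqing and 230 to 256 CPM in Hubei. Gansu had 148 to 159 CPM and Shanxi 131 to 136 CPM, so the Chongqing range lay within that of Gansu. The vacuolar acid beta-fructofuranosidase 2, an invertase, had 10.1, 14.8 and 21.2 CPM in the south and 0.575, 0.907 and 1.01 CPM in the north (DN18594). The libraries did not overlap, the log2 fold change was 4.11 ± 0.15 (adjusted p = 1.8e-10), and the protein sum was higher by 1.09. A raffinose synthase match, probable galactinol-sucrose galactosyltransferase 2, was higher by 2.07 ± 0.0719 with 160 to 369 CPM in the south and 23.3 to 138 CPM in the north. Of the sugar transporters, 5 of 64 were higher, among them sugar transport protein 13 (2.47), a monosaccharide importer, and 1 was lower, ERD6-like 7 (-1.19). The sums of the 64 transporters were 3367 to 3538 CPM in Chongqing, but 1486 to 1634 CPM in Hubei and 1906 to 2057 CPM in Gansu, so the summed level did not separate the sides. Sucrose synthase isoform 1, which cleaves sucrose in sink tissues, was lower by 0.81 ± 0.132. The starch list stayed near the background, with 5 higher and 5 lower of 88. Its lower leader was the 4-alpha-glucanotransferase unigene DN22014, an enzyme that rearranges glucan chains, with 3.07, 10.4 and 17.4 CPM in the south and 160, 189 and 223 CPM in the north and a protein sum of -0.71. A starch branching enzyme 1 unigene (DN20513) had 12.6, 14.9 and 19.1 CPM in the south and 121, 130 and 133 CPM in the north, but a protein sum of 0.35.

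Water channels and metal-handling proteins were higher in the south more often than lower. The list of metal, sulfate, potassium and water transport had 28 higher (9.79%) and 12 lower (4.2%) of 286, with a median of 0.17, and 19 higher and 6 lower of 150 proteins. Aquaporins, which let water cross membranes, made up 11 of the higher and 2 of the lower unigenes out of 49. Plasma membrane aquaporin PIP2-4 had 167, 194 and 224 CPM in the south and 26.5, 32.6 and 35.7 CPM in the north (DN15078). It was higher by 2.63 ± 0.0754 (adjusted p = 2.4e-11) without overlap, with a protein sum of 1.22. The vacuolar aquaporin TIP1-1 unigene DN14168 had 954 to 1842 CPM in the south and 248 to 757 CPM in the north, a log2 fold change of 1.59. Aquaporins NIP1-1 (-3.66) and PIP1-5 (-2.47) were lower. The summed level of the 49 aquaporins was 3448 to 3801 CPM in Chongqing and 5959 to 6986 CPM in Hubei, against 1596 to 1790 CPM in Gansu and 4030 to 4601 CPM in Shanxi, so Chongqing lay below Shanxi.

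Metallothionein-like protein 1 had 789, 1746 and 2923 CPM in the south and 224, 373 and 537 CPM in the north, and was higher by 2.13 ± 0.0412. The 10 metallothionein unigenes summed to 17910 to 19589 CPM in Chongqing, 9310 to 10387 CPM in Hubei, 8375 to 9517 CPM in Gansu and 4758 to 5382 CPM in Shanxi. Chongqing was far above the others, and the Hubei and Gansu ranges overlapped. A metal-nicotianamine transporter, YSL1, which moves chelated iron and other metals, was higher by 4.73 ± 0.139 with 29.1 to 42.4 CPM in the south and at most 1.83 CPM in the north. Sulfate transporter 1.3 (-2.62) and metal tolerance protein 1 (-3.72), a zinc transporter of the vacuole, were lower. In the phosphate list 6 of 64 were higher (9.38%) and 2 lower (3.12%) in all 4 pairs. Its median was -0.08, and the contrast of the averages called 19 higher and 23 lower. The higher ones included PHO1 homolog 3 at 1.42, of the family of phosphate exporters. PHOSPHATE STARVATION RESPONSE 1, the regulator of phosphate-deficiency genes, was also among them, at 0.74.

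Cell cycle unigenes also leaned higher, with 20 (7.41%) higher and 7 (2.59%) lower of 270, a median of 0.19, and 12 higher and 5 lower of 145 proteins. Beside cyclin-B3-1, a G2/mitotic-specific cyclin-2 was higher by 3.58 ± 0.249, with 2.85 to 9.13 CPM in the south and at most 1.43 CPM in the north. The summed level of 35 cyclin unigenes was 568 to 602 CPM in Chongqing and 419 to 426 CPM in Hubei, above the 366 to 395 CPM of the northern libraries. Kinesins, motor proteins that run along microtubules, were 12 higher and 5 lower of 124. A KIN-14S unigene had 22 to 66.4 CPM in all southern libraries and 0 counts in all northern ones, whereas KIN-7N was lower by 3.65 ± 0.344. Their summed levels were 1195 to 1241 CPM in the south, 990 to 1013 CPM in Gansu and 1129 to 1144 CPM in Shanxi. The list also holds inhibitors of cyclin-dependent kinases, which slow the cycle, of which SMR6 (1.42), SMR9 (3.68) and inhibitor 4-like (7.95) were higher and inhibitor 7 (-1.37) was lower.

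Ethylene genes that passed the rule of all 4 pairs were more often lower than higher in the south. Of 159 tested unigenes of ethylene synthesis, perception and response, 27 (17.0%) were lower and 10 (6.29%) higher in all 4 pairs, and per protein 15 of 85 were lower and 5 higher. The list median was -0.16, the contrast of the averages called 68 lower and 40 higher, and the levels of the whole list overlapped between the sides, at 5408 to 5872 CPM in the south and 5532 to 7109 CPM in the north. Ethylene is made from ACC, which ACC synthase forms and ACC oxidase converts. Of 6 ACC synthase unigenes 2 were lower and 0 higher, and the 6 summed to 5 to 5.57 CPM in Chongqing and 13.2 to 15.8 CPM in Hubei, against 45.0 to 52.8 CPM in Gansu and 25.5 to 29.2 CPM in Shanxi. ACC synthase 3 had 0 to 0.427 CPM in the south and 8.34, 12 and 17.2 CPM in the north, a log2 fold change of -6.27. The ACC oxidase unigene DN24117 had 0 to 1.96 CPM in the south and 24.7, 27.9 and 38.8 CPM in the north, without overlap. Its log2 fold change of -6.38 ± 0.242 became -8.28 without the second Chongqing library, which held the only Chongqing counts, and its protein sum of -1.10 was not called in all 4 pairs. An ACC oxidase homolog, DN19093, was higher by 4.89 with a protein sum of 0.64.

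Ethylene receptors repress the response until they bind the hormone, and RTE1 promotes the activity of the receptor ETR1 in Arabidopsis. Of their 8 unigenes, 6 were lower and 0 higher. Together they summed to 469 to 493 CPM in Chongqing and 394 to 421 CPM in Hubei, below 740 to 803 CPM in Gansu and 1074 to 1139 CPM in Shanxi. The probable ethylene response sensor 1 unigene DN22152 had 41.3, 43.9 and 51 CPM in the south and 137, 183 and 231 CPM in the north. All southern libraries were lower, by 2.00 ± 0.0506 on the log2 scale (adjusted p = 9e-12). Ethylene response sensor 1 unigene DN22307 (-0.99), ethylene receptor 2 (-1.42), ethylene receptor (-0.52) and RTE1 (-2.76 and -2.55) completed the group, which was chosen after its values were seen.

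Ethylene-responsive transcription factors, which bind the promoters of stress and defence genes, had 17 lower and 9 higher of 111. Ethylene-response factor C3 had 0.931, 5.34 and 11.1 CPM in the south and 60.2, 85.6 and 115 CPM in the north, and was lower by 4.68 ± 0.072 (adjusted p = 1.8e-13) without overlap. ERF1B, which joins ethylene and jasmonate signals in Arabidopsis, was lower by 4.41 and 2.12 in its 2 unigenes. RAP2-3, of a group of factors whose stability depends on oxygen in Arabidopsis, was higher by 2.42 ± 0.0714, with 195 to 617 CPM in the south and 28.8 to 155 CPM in the north, and RAP2-2 of the same group by 0.52. The summed level of the 111 factors did not separate the sides, at 3805 to 4327 CPM in the south and 3270 to 4720 CPM in the north.

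WRKY factors, regulators of defence and senescence, had 10 lower (11.5%) and 3 higher (3.45%) of 87, and 5 lower and 0 higher of 38 proteins. The list median was -0.20, and the contrast of the averages called 33 lower and 25 higher. The list summed to 944 to 947 CPM in Chongqing and 1374 to 1436 CPM in Hubei. Gansu had 1182 to 1216 CPM and Shanxi 1201 to 1239 CPM, so Hubei lay above both northern areas. WRKY65 had 2.81, 3.78 and 6.15 CPM in the south and 13.1, 23.1 and 35.6 CPM in the north. The groups did not overlap, and it was lower by 2.47 ± 0.186 (adjusted p = 1.9e-07), with a protein sum of -1.69. Chosen after their values were seen, 3 unigenes of WRKY75 (-1.18 to -3.21) and 2 of WRKY40 (-2.24 and -4.34), a repressor of defence genes in Arabidopsis, were lower too. The higher WRKY unigenes matched WRKY6 (1.84), WRKY22 (1.53) and WRKY57 (1.41). Among MYB factors 8 of 127 were lower (6.3%) and 2 higher (1.57%), while the contrast of the averages called 31 lower and 28 higher. MYB14 was lower, at -1.69 ± 0.0665, with 11.9 to 25.1 CPM in the south and 48.3 to 74 CPM in the north.

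Pathogenesis-related and MLP-like proteins were lower in 14 unigenes (9.93%) and higher in 4 (2.84%) of 141 by the rule of all 4 pairs. Per protein they were lower in 10 and higher in 2 of 61. The list median was positive, however, at 0.12, and the contrast of the averages called 51 unigenes higher and 45 lower. Major allergen Api g 1, isoallergen 2, the PR-10 protein known from celery, had 1916, 2686 and 3137 CPM in the south and 10219, 11805 and 13575 CPM in the north. Every southern library lay below every northern one, the log2 fold change was -2.17 ± 0.0664 (adjusted p = 4.1e-11), and it was the only unigene of its protein (DN21333). Class V chitinase, which breaks down fungal chitin, had 178, 204 and 219 CPM in the south and 471, 848 and 1344 CPM in the north, and was lower by 1.96 ± 0.0602. The osmotin-like antifungal proteins OSML13 (-3.11 ± 0.086) and TPM-1 (-3.18 ± 0.0768) were lower as well, with 25.7 to 307 and 14.4 to 159 CPM in the south against 431 to 1526 and 187 to 951 CPM in the north. Summed levels differed by group. The 10 unigenes of PR-10-type allergens and MLP-like proteins had 3322 to 3604 CPM in Chongqing and 6512 to 7954 CPM in Hubei, below 10934 to 12575 CPM in Gansu and 12915 to 14781 CPM in Shanxi. Only DN21333 of these was called in all 4 pairs, with means of 3056 CPM in Chongqing, 2218 in Hubei, 10857 in Gansu and 12716 in Shanxi. This unigene thus held most of the northern sums, whereas most of the Hubei sum came from the other unigenes of the group. The sums of the next 2 groups did not separate the sides, as 21 chitinase unigenes had 6201 to 6851 CPM in Chongqing and 6548 to 7629 CPM in Gansu, but 1349 to 1675 CPM in Hubei and Shanxi. Osmotin and thaumatin-like unigenes had 1497 to 1615 CPM in Chongqing, 305 to 344 CPM in Hubei, 3315 to 3655 CPM in Gansu and 949 to 1024 CPM in Shanxi. The beta-1,3-glucanases, which cut callose and fungal walls, had 5 lower and 3 higher of 58. Counts matched to the fungus Rhizopus were 0.103% to 0.174% of the southern and 0.172% to 0.412% of the northern libraries, and their part in these results was not tested.

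**Figure D5:**
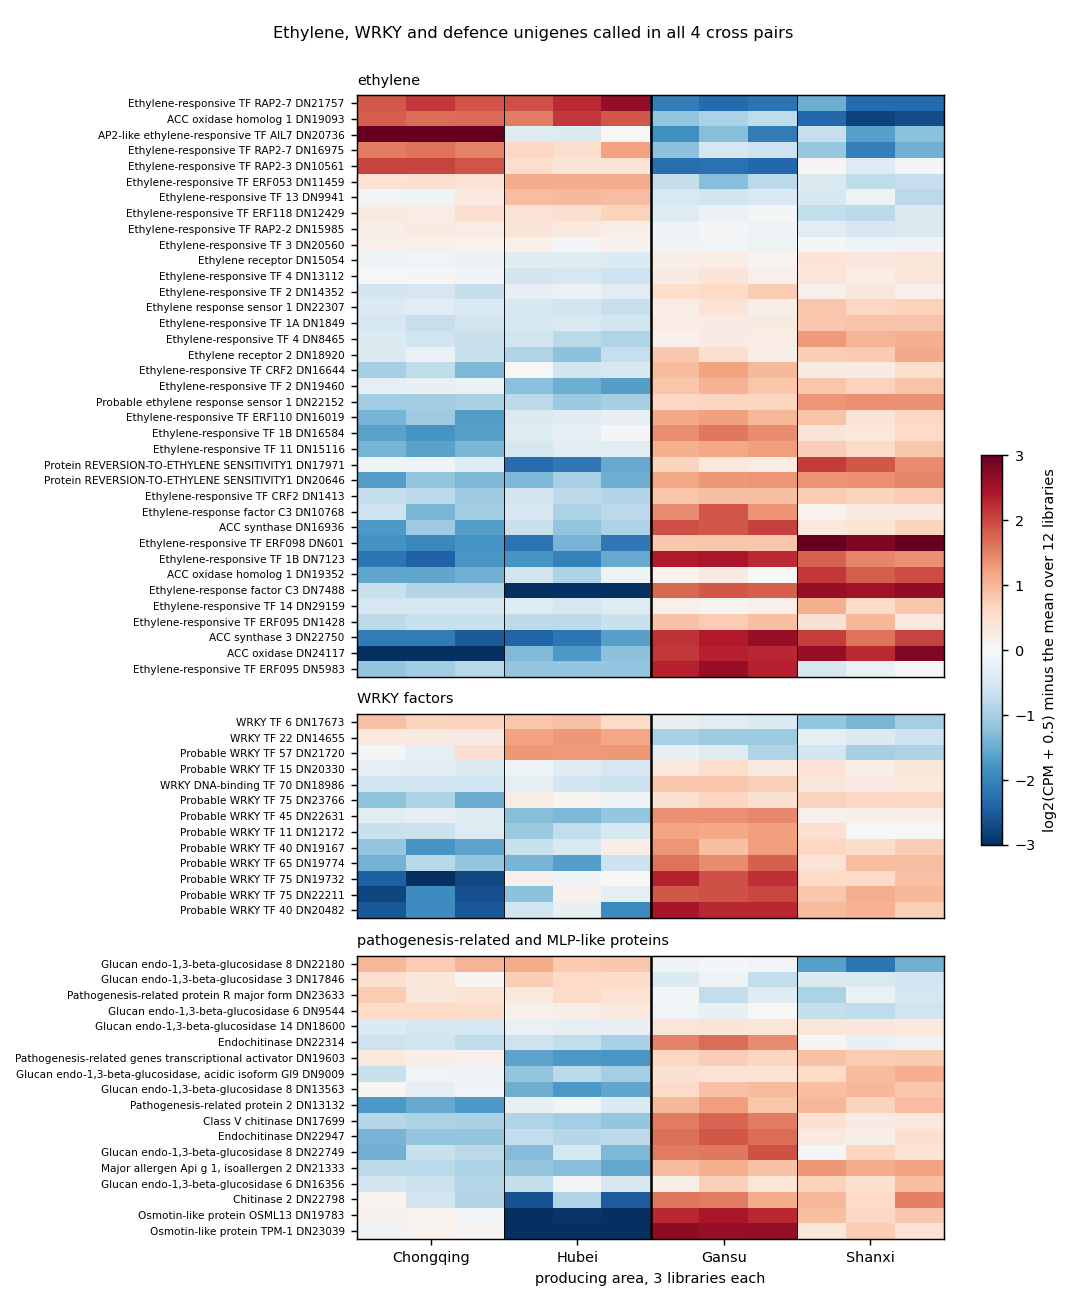
Heat map of the ethylene, WRKY and pathogenesis-related unigenes called in all 4 cross pairs, with 3 libraries per area as columns, as log2(CPM + 0.5) minus the unigene's mean over the 12 libraries; the colour scale ends at 3 in either direction. Of these unigenes 51 are lower (blue in the Chongqing and Hubei columns) and 17 higher, and ethylene-response factor C3, at -4.68, is among those with the strongest contrast.

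By the rule of all 4 pairs, intracellular NLR immune receptors leaned in the other direction from the pathogenesis-related proteins. Both lists had a positive median and more unigenes called higher than lower by the contrast of the averages. The NLR list had 42 higher (8.94%) and 22 lower (4.68%) of 470, a median of 0.32, and 8 higher and 1 lower of 116 proteins. The contrast of the averages called 169 of its unigenes higher and 112 lower. It also took in ENHANCED DISEASE RESISTANCE 2 proteins, which are not receptors, with 1 unigene higher and 1 lower. RUN1, named for a mildew resistance gene of grapes, had 15.7, 34.6 and 61.6 CPM in the south and 0.762, 2.87 and 4.01 CPM in the north (DN23450), and was higher by 3.58 ± 0.183 without overlap. The 29 unigenes with this match summed to a difference of 0.69, called in all 4 pairs. The levels of all 470 unigenes summed to 3778 to 3889 CPM in Chongqing and 5113 to 5313 CPM in Hubei, against 3367 to 3474 CPM in Gansu and 4548 to 4699 CPM in Shanxi, so Chongqing lay below Shanxi.

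Coumarin and furanocoumarin genes had the largest share of lower unigenes of all 44 lists. Of 43 tested, 9 (20.9%) were lower and 4 (9.3%) higher in all 4 pairs, and the list median was -0.45. The 4 higher unigenes had at most 2.56 CPM in any library, and 3 of them had 0 counts in all northern libraries. Summed per protein, 1 of 13 was lower and 1 higher in all 4 pairs. Several of these unigenes share a best match, and the sums of the other proteins were not called in all 4 pairs. The lower unigenes covered several steps of coumarin and furanocoumarin synthesis. Feruloyl CoA ortho-hydroxylase, which forms the coumarin ring of scopoletin, had 1.18, 10.5 and 19.7 CPM in the south and 44.3, 65.6 and 88.1 CPM in the north (DN20507). It did not overlap and was lower by 3.25 ± 0.135 (adjusted p = 6.1e-10). This was the only 1 of 7 tested unigenes of the enzyme that was called in all 4 pairs. The 7 summed to 44.8 to 47.3 CPM in Chongqing and 704 to 777 CPM in Hubei. Gansu had 852 to 958 CPM and Shanxi 610 to 691 CPM, so Hubei lay above Shanxi.

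The prenyltransferase of umbelliferone that leads to linear furanocoumarins had 3 lower unigenes and 1 of the low-level higher ones. The leading one, DN24348, had 0.401, 4.29 and 8.8 CPM in the south and 48.2, 75.8 and 90.2 CPM in the north. It was lower by 4.70 ± 0.244 (adjusted p = 5e-09) without overlap, and the protein sum over 10 unigenes was lower by 1.25 in all 4 pairs. The others, DN20567 and DN22720, were lower by 2.45 and 2.20. Psoralen synthase, the P450 that closes the furan ring, was lower by 2.89 ± 0.0689 (DN21601, 17.9 to 128 CPM in the south and 129 to 961 CPM in the north) and by 2.43 in a further unigene. Bergaptol O-methyltransferase, which forms bergapten, was lower by 4.20 and 2.70. Of these lower unigenes, the more heavily counted DN22691 had 47.5, 129 and 217 CPM in the south and 351, 794 and 1356 CPM in the north. All 4 tested unigenes of this enzyme summed to 495 to 547 CPM in Chongqing and 1406 to 1731 CPM in Hubei. Gansu had 1485 to 1800 CPM and Shanxi 1932 to 2252 CPM, so the Hubei and Gansu ranges overlapped. Xanthotoxin 5-hydroxylase CYP82C4 was the remaining lower unigene, with 0 to 0.0847 CPM in the south and 0.0974 to 6.81 CPM in the north.

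The whole list summed to 991 to 1046 CPM in Chongqing and 3046 to 3548 CPM in Hubei, against 4351 to 5010 CPM in Gansu and 3544 to 4039 CPM in Shanxi. Chongqing was well below all other areas, whereas the Hubei and Shanxi ranges overlapped slightly. For the prenyltransferases the sums were 192 to 208 CPM in Chongqing, 399 to 416 CPM in Hubei, 730 to 810 CPM in Gansu and 580 to 621 CPM in Shanxi, so both southern areas lay below both northern ones. Psoralen synthase sums in Hubei (234 to 270 CPM) overlapped those in Shanxi (234 to 258 CPM), while Gansu had 1105 to 1265 CPM. The general phenylpropanoid list, which supplies the precursors, had 0 of 8 unigenes called in either direction.

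Isoprenoid precursor routes, which supply the prenyl donors, had 4 lower (10.3%) and 0 higher of 39, and 3 lower and 0 higher of 19 proteins. The list median was 0.0004, and the contrast of the averages called 18 lower and 9 higher. The list summed to 1112 to 1172 CPM in Chongqing and 1929 to 2155 CPM in Hubei. Gansu had 2432 to 2737 CPM and Shanxi 1818 to 2065 CPM, so the Hubei and Shanxi ranges overlapped. Isopentenyl-diphosphate isomerase I, which interconverts the C5 building blocks, had 108, 135 and 148 CPM in the south and 223, 342 and 511 CPM in the north, and was lower by 1.35 ± 0.0616. A late enzyme of the plastid route, 4-hydroxy-3-methylbut-2-enyl diphosphate reductase, was lower by 0.80 ± 0.0422. The phosphomevalonate kinase unigene DN24569 was lower by 3.85 but had a protein sum of -0.11. Terpene and prenyl diphosphate synthases had 2 higher and 2 lower of 39, with sesquiterpene synthase 2 at -1.20 ± 0.0914.

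Flowering regulators had 16 higher (10.3%) and 7 lower (4.52%) of 155, and 6 higher and 4 lower of 88 proteins. The CONSTANS-like zinc finger proteins, several of which act in day-length responses, had 4 higher and 1 lower of 16. They summed to 317 to 340 CPM in the southern libraries and 202 to 209 CPM in the northern ones. CONSTANS-LIKE 5 unigene DN17536 had 17.3, 31.3 and 55.2 CPM in the south and 3.08, 5.72 and 7.48 CPM in the north, higher by 2.55 ± 0.118. The floral repressor FLOWERING LOCUS C was higher in unigene DN20907 by 2.23 ± 0.378 at low levels, 4.14 to 8.41 CPM against 0.403 to 3.56 CPM, with a protein sum of 0.19. The floral promoter SOC1 had 7.37, 11.8 and 17.5 CPM in the south and 60.1, 70.5 and 82.9 CPM in the north (DN21486). Its libraries did not overlap, and it was lower by 2.61 ± 0.0686 (adjusted p = 1.3e-11), with a protein sum of -0.95.

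Abscisic acid genes were few, with 2 higher and 2 lower of 44. CYP707A2, which breaks down abscisic acid, had 43.4, 48 and 61.2 CPM in the south and 8.1, 16.5 and 22.3 CPM in the north, higher by 1.70 ± 0.112 with a protein sum of 1.73. NCED1, the rate-limiting step of its synthesis, was lower by 4.40 ± 0.197 (0.186 to 1.7 CPM against 12.4 to 19.5 CPM), with a protein sum of -1.71 that was not called in all 4 pairs. Abscisic-aldehyde oxidase, the last step of synthesis, was lower by 0.79 ± 0.0427. Among the remaining hormone lists, jasmonate had 4 higher and 7 lower of 76, auxin 8 and 8 of 159, and gibberellin, cytokinin and brassinosteroid 9 and 3 of 125.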

How the data were processed

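Root RNA of 4 producing areas was measured in 12 libraries, grouped by the sample titles. The deposited estimated counts per unigene, which need not be whole, and the FPKM values, which the authors scaled by unigene length and library total, rest on a de novo assembly, as the deposited identifiers show. The submitters' processing notes name FastQC, Trimmomatic, Bowtie2, featureCounts, RSEM and DESeq2; the sources used here give no versions, order or handling of shared reads.

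Counts were rounded and tested with edgeR 4.0.16 (R 4.3.3; TMM, filterByExpr by area, quasi-likelihood test, no covariates, 8 residual degrees of freedom), with Benjamini-Hochberg adjustment over 60756 of 67432 unigenes at 0.05. Library totals of 19920182 to 23319714 limit low unigenes, and intervals or floors would cover counting error only. CPM uses TMM factors (0.941 to 1.05). The SE was derived as the size of the fold change over the root of the test's F. The biological coefficient of variation was 0.251. Plant unigenes (38117, or 56.5%) had a land plant as genus of the NR match, else of the Swiss-Prot match; 41.2% of unigenes had no match. Of the plant unigenes 2733 failed the count filter.

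Members, lists and the rules for naming were chosen with earlier results of these data known. Search terms of some lists that matched inside other words (methylene for ethylene) were corrected after members had been seen, and the subgroups by role were formed after values had been seen. The naming rule took the 12 higher and 12 lower unigenes of the largest smallest-pair fold change (described, mean log2 CPM of 3 or more, more than 3 counts in each area, no overlap) and, per list and direction, the leading member of mean log2 CPM 1 or more. These list leaders also had to be described, with more than 3 counts in each area and no overlap. Others named in the text were chosen after their values were seen. Same-numbered libraries of different areas deviated together by correlations of -0.0663 to 0.0636, so the numbers were not taken to pair them. Scripts were tested on simulated data. Alternatives were DESeq2, limma on log2(FPKM + 1), other scalings, filters and units of counting, a replicate block and leaving out each library.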

Additional observations from a re-analysis of the deposited data

Results flagged for a closer look

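A pair of unigenes annotated as a coat protein and a polyprotein, with an artificial sequence as best match, took 3.33%, 3.2% and 3.32% of the counts in the 3 Shanxi libraries and 4.52e-06% to 0.00623% in the other 9. They lie outside the plant unigenes compared here, and they stand out as a signal of a single northern area. Unigenes matched to the fungus Rhizopus, 522 in the assembly, took 0.412% of the counts in the third Shanxi library, the highest of the 12, and 0.103% to 0.174% in the southern libraries. The part of either in the differences between the sides was not tested. With 3 libraries an area, no library was tested for standing apart from its replicates.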

How the results depend on the processing

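The counts of unigenes that differed one way in all 4 pairs were 1748 and 1505. They stayed within 1.5 times of these under DESeq2 (1769 and 1549), RLE scaling, no filter, a filter of 50 counts, limma on log2(FPKM + 1) (1757 and 1639) and log2(FPKM + 0.1), and fits of only the areas compared (1565 and 1403). Leaving out each library in turn gave 1497 to 1761 and 1387 to 1485, for the averages 9011 to 10129 and 8112 to 8519, for the split of Chongqing and Gansu against Hubei and Shanxi 6103 to 6526, and 13 to 20 lists with more higher than lower unigenes. With the replicate number as a block the counts were 1650 and 1441, and no named unigene changed its call. The named unigenes had been chosen for lack of overlap in these same libraries, so their kept calls are no separate result. Only 3 of 12 libraries correlated best with their own number. At a minimum of 2-fold, the averages called 4471 higher and 4284 lower, all 4 pairs 796 and 836, and the split 3212, since a size limit was added. With area sums, 2 against 2, edgeR called 0 higher and 0 lower and none of the 95 named unigenes, with 2 residual degrees of freedom; the smallest adjusted p was 0.564, and 1536 had an unadjusted p under 0.05. DESeq2 on area sums, added after seeing the data, called 552 and 552, of which 425 and 412 were also called in all 4 pairs; 213 of them had 0 counts in both areas of a side. Summed per best protein, of which there are fewer than unigenes, the averages called 5308 and 4542, all 4 pairs 878 and 717, and the split 3989.

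Of 95 named unigenes, 79 kept direction and call in the protein sum by the contrast of the averages, 4 lost that call and 12 reversed. By the rule of all 4 pairs, 55 protein sums were called in the direction of the unigene, 37 were not called and 3 were called the opposite way. The reversed values were -0.33 for RNA helicase 20, -0.05 for bHLH68, -0.71 for the 4-alpha-glucanotransferase unigene DN22656, -0.31 for glucan endo-1,3-beta-glucosidase 8, -0.28 for Transposon Tf2-9, 0.38 for polygalacturonase DN21976, 0.59 for heavy metal-associated protein 5, 0.35 for branching enzyme 1, 0.26 for auxin response factor 6, 0.39 for caffeoylshikimate esterase, 0.49 for a retrotransposon gag protein and 0.25 for zeatin O-glucosyltransferase. The non-plant share differed by -0.154 percentage points, south minus north, and by -0.302 with Swiss-Prot matches only. Beyond the cases explained by construction, the cause was not tested. Leaving out 1 library moved the fold by over 1.5 times for the ACC oxidase DN24117 (-8.28 to -6.11), the calcium ATPase DN23383 (6.02 to 6.89), the cellulose synthase DN23084 (3.92 to 4.84) and the 4-alpha-glucanotransferase DN22014 (-4.87 to -4.03). Depth limits folds of unigenes with libraries at 0, such as DN24117, at 0 CPM in 2 Chongqing libraries.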

Other observations

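Low-oxygen and fermentation genes held 2 higher and 1 lower unigenes of 35. Alcohol dehydrogenase 1, which regenerates NAD in fermenting tissue, had 20.6, 23.2 and 29.4 CPM (lowest, median and highest) in the southern libraries and 0.123, 0.789 and 1.17 CPM in the northern ones. The sides did not overlap, and the only unigene of its protein was higher by 5.08 ± 0.272 (edgeR, adjusted p = 6.8e-09). Pyruvate decarboxylase 4, the step before it, was lower by 1.84 ± 0.152. The whole list summed to 1607 to 1907 CPM in the south, within the 1255 to 2526 CPM of the north.

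Heat stress factor A-6b was higher by 2.09 ± 0.0883, with 33.1, 48.4 and 78.2 CPM in the south and 6.94, 12.4 and 19.1 CPM in the north, while the heat shock list had 5 higher and 6 lower of 151, near the background. Catalase DN23552, which removes hydrogen peroxide, had 5460 to 11134 CPM in the south and 2320 to 3819 CPM in the north. In cell wall genes, 12 of 202 pectin unigenes were higher and 11 lower, and callose synthase 8 was lower by 6.79 ± 0.23, with a protein sum of -2.46. Transporters of the ABC family had 18 higher (8.14%) and 14 lower (6.33%) of 221. Among them ABCG53, the only unigene of its protein, had 0.223 to 6.47 CPM in the south and 32.1 to 69.7 CPM in the north, and was lower by 4.73 ± 0.116. The peptide and nitrate transporter family member NPF8.5 was lower by 4.26 ± 0.128, with 0.72 to 16.3 CPM against 57.3 to 77.5 CPM. BAHD acyltransferase DCR, which acts in cutin synthesis in Arabidopsis, had 16.6 to 94.7 CPM in the south and 134 to 154 CPM in the north, lower by 1.85 ± 0.0525.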
